A study of Mus musculus with 6 samples.

Results

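Intraflagellar transport (IFT) is the train of protein complexes, and the motors that pull it, which carries material along the primary cilium. The genes described here are 30 mouse genes for that train and for the delivery of membrane proteins to the cilium. They were chosen by name, as the subunits of IFT-A (6 genes), IFT-B (13 genes), the kinesin-2 motors (5 genes) and dynein-2 (2 genes), with 4 genes of membrane cargo handling, out of 38896 genes in the deposited table. All 30 were in the table, and all 30 passed the filter on low counts that left 19869 genes for testing.

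The RNA came from 6 cultures of colonic fibroblasts grown out of the distal colon of mice aged 6 weeks. After 2 passages the cells were held for 24 h in inflammatory conditioned medium (labelled DSS, which usually stands for dextran sulfate sodium, 3 cultures) or in control medium (labelled control, 3 cultures). Mice 1716, 1717 and 1718 each gave 1 culture to each group, and the series concerns loss of colonic primary cilia, inflammation and carcinogenesis. How the medium was made, whether the cultures were dividing or serum starved, and the strain and sex of the mice are not stated in the labels. No cilium was counted in these data, which hold RNA levels alone.

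The primary cilium is a sensory projection built on a centriole, and it makes no protein of its own, so tubulin, receptors and signalling proteins are brought in from the cell body. IFT-B trains, pulled outward by kinesin-2, carry building material to the tip, and IFT-A with dynein-2 brings the trains back. IFT-A also works with Tulp3 to bring membrane receptors in, while Arl13b, Arl3 and Inpp5e handle lipid-modified proteins and the phosphoinositides of the ciliary membrane. Fibroblasts are among the cells that carry a primary cilium, through which they read Hedgehog ligands.

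Depth was 17293680 to 17931239 estimated counts in the DSS libraries, against 17734405 to 19482938 in the control libraries. Levels below are CPM, the counts of a gene scaled to a common library total, with TMM factors, a correction for a few abundant genes taking up much of a library. Marker genes of fibroblasts summed to 16888 to 19206 CPM in DSS cultures, against 27415 to 33505 CPM in control cultures, with Col1a1 among the 5 of 8 that fell and Pdgfra and Dcn the 2 that rose in the test described below (4 and 1 without the mouse as a block, where Thy1 and Dcn were lost). Leukocyte markers summed to 1236 to 2042 CPM in DSS cultures, against 1942 to 2818 CPM in control cultures, and of 7 tested, 4 fell and Cd68 rose 1.64-fold (without the block the falls of Csf1r and Cd14 were lost). Epithelial markers summed to 3.70 to 5.22 CPM in DSS cultures, against 9.92 to 14.0 CPM in control cultures, and Muc2 alone, the only one called of 3 tested, averaged 2.12 CPM in DSS cultures and 9.17 CPM in control cultures. Markers of multiciliated cells summed to 12.2 to 16.7 CPM in DSS cultures, against 14.0 to 15.2 CPM in control cultures, and none of 6 tested passed the threshold given below. The part that other cells had in the results below was not tested.

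The first question was whether the transport machinery as a whole differed between DSS and control cultures. Of the 30 genes, 4 passed the threshold (adjusted p under 0.05 by edgeR's quasi-likelihood test with Benjamini-Hochberg adjustment over all tested genes and the mouse as a block). That is 13.3% of them, against 25.0% of all tested genes. Tulp3 and Kif3c rose in DSS cultures, while Ift20 and Kif3b fell. Higher calls made up 12.3% and lower calls 12.7% of all tested genes. Without the block 3 of the 30 passed (1 higher, 2 lower, with Kif3c lost), or 10%, against 13.3% of all tested genes (7.37% higher, 5.91% lower). In bulk RNA such as this, fewer cells of a type and less RNA per cell cannot be told apart.

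Fitted values are log2 fold changes of DSS over control. Among the 26 genes that missed the threshold they were -0.34 (Wdr35) to 0.23 (Wdr19), with a median size of 0.10, and Wdr35 and Ift22 lay farther from 0 than the called Kif3b, Kif3c and Tulp3. The median of the 30 was -0.04, with 12 above 0 and 18 below, against 0.01 over all tested genes, and the whole range was -0.53 for Ift20 to 0.28 for Tulp3. The median size of the change, whatever its sign, was 0.12 for the 30 genes and 0.20 for all tested genes. These sizes were not matched for expression level. A filter at a mean of 1 CPM kept 29 of the 30 genes and 17719 genes in all, against the 19869 tested here. The 95% interval of the change stayed inside 1.5-fold either way for 27 of the 30 and inside 2-fold for all 30. The 3 genes whose interval went past 1.5-fold were Ift20, Wdr35 and Kif17. These intervals give how far a gene could have moved under the test with the block alone, and a missed threshold does not show equality. In a simulated draw that test made more false calls than the threshold states, so its intervals may be too narrow. Without the block the standard error of Kif3c was 0.128 against 0.0579 with it, while that of Arl3 was 0.115 against 0.119. The direction was the same in all 3 mice for 16 genes, 8 up and 8 down, which is 53.3% against 56.9% of all tested genes (28.4% up, 28.5% down). The 3 DSS values lay clear of the 3 control values for 8 genes, 2 above and 6 below, or 26.7% against 34.2% of all tested genes (17.7% above, 16.5% below).

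**Figure D1:**
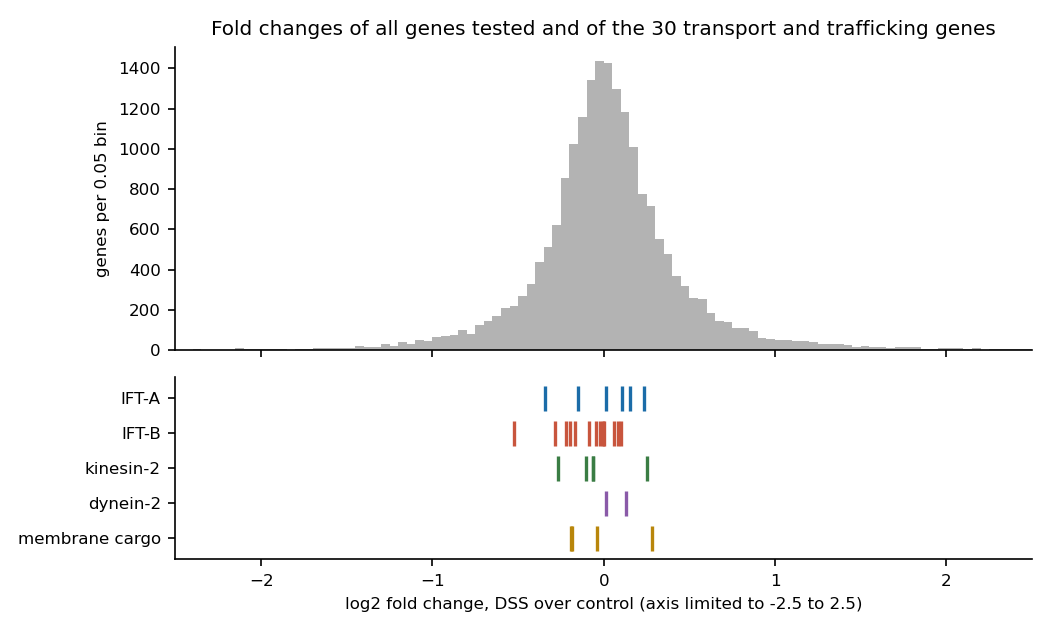
Distribution of the log2 fold change of DSS over control for 19869 tested genes (histogram, counts of genes on the vertical axis), with a tick for each of the 30 transport genes in rows by complex. The ticks gather around 0 between -0.53 and 0.28.

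Summed over subunits, IFT-B was lower and dynein-2 and the membrane cargo genes were higher in the DSS culture of every mouse, while IFT-A and kinesin-2 differed in direction between mice. IFT-A held 133, 139 and 145 CPM in the DSS cultures of mice 1716, 1717 and 1718, against 139, 133 and 137 CPM in their control cultures. IFT-B held 220, 219 and 232 CPM in DSS cultures, against 235, 236 and 247 CPM in control cultures, and the groups did not overlap. Ift20, part of that sum, averaged 15.3 CPM in DSS cultures and 22.1 CPM in control cultures. The core subunits listed below, without Ift20, summed to 106, 106 and 118 CPM in DSS cultures. In control cultures they summed to 114, 114 and 121 CPM, with overlap. The outer subunits, with Ift20, held 114, 112 and 114 CPM in DSS cultures, against 122, 122 and 126 CPM in control cultures, without overlap. With Ift20 taken out, the groups overlapped, both for these outer subunits and for IFT-B as a whole. Both sums stayed lower in the DSS culture of every mouse. The kinesin-2 sum was 209, 205 and 184 CPM in DSS cultures, against 208, 200 and 192 CPM in control cultures. Dynein-2 subunits summed to 61.1, 54.5 and 56.1 CPM in DSS cultures and to 55.2, 51.7 and 51.4 CPM in control cultures, with overlap between the groups. Membrane cargo genes summed to 123, 123 and 127 CPM in DSS cultures and to 116, 111 and 119 CPM in control cultures, with no overlap, and of these genes Tulp3 alone had a fitted value above 0. All 30 genes together summed to 746, 740 and 745 CPM in DSS cultures, against 753, 732 and 746 CPM in control cultures. These sums are descriptions with no test.

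Side by side, the medians of the log2 fold change were 0.06 for IFT-A, -0.04 for IFT-B, -0.06 for the 7 motor subunits and -0.11 for the membrane cargo genes, against 0.01 for all tested genes. No IFT-A gene and 1 of 13 IFT-B genes passed the threshold, with 1 higher and 1 lower call among the motors. The median IFT-B subunit was lower in the DSS culture of each mouse (log2 ratios of -0.10, -0.05 and -0.12 in mice 1716, 1717 and 1718). The same median for IFT-A was 0.03, 0.05 and 0.03. Differences between the complexes were not tested.

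**Figure D2:**
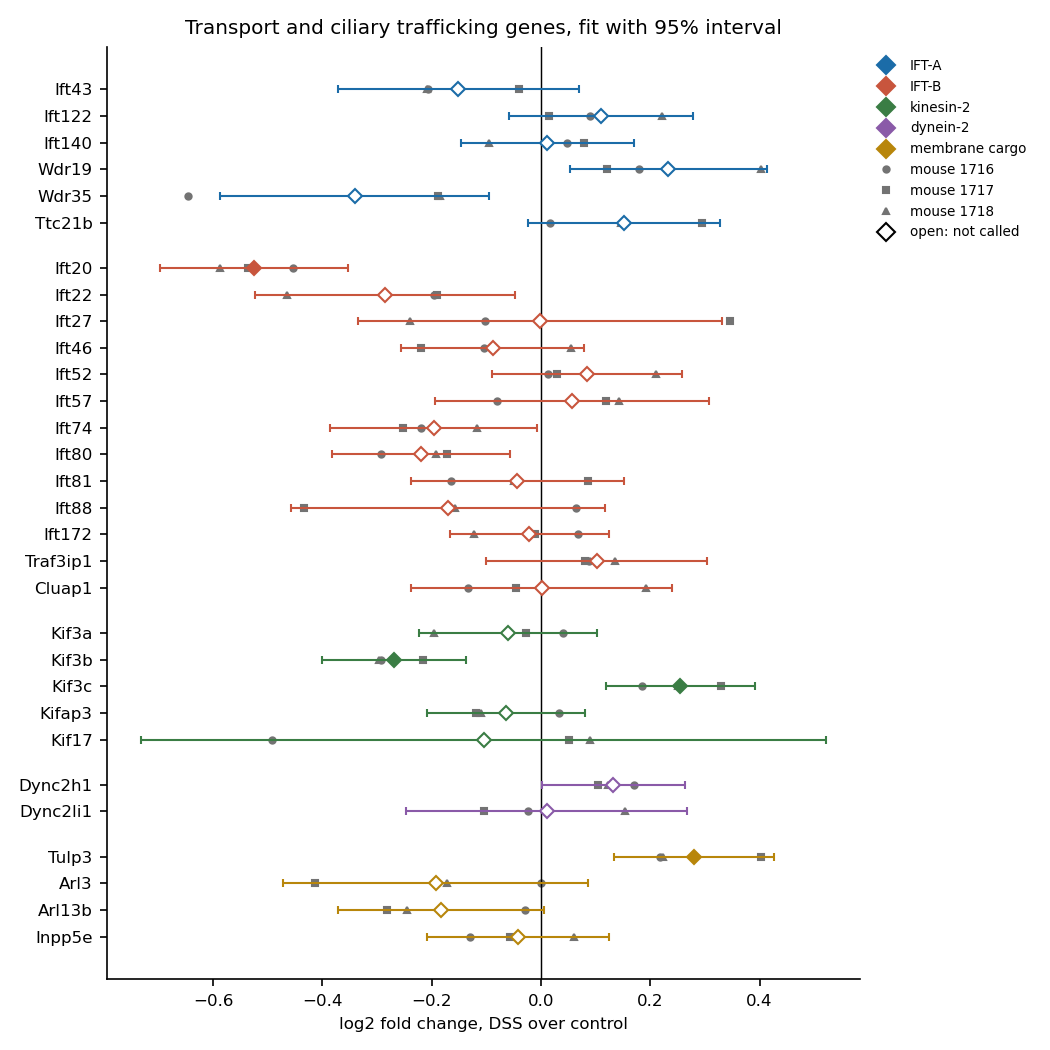
Fitted log2 fold change of DSS over control for each of the 30 genes with its 95% interval (horizontal axis), grouped by complex; filled diamonds passed the threshold and grey symbols give each mouse's own ratio. Ift20 lies farthest from 0 at -0.53 and Kif17 has the widest interval, -0.73 to 0.52.

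Among the IFT-B genes, Ift20 changed most. It encodes a small subunit that also sits at the Golgi and takes part in sorting membrane proteins toward the cilium. The gene (NCBI gene 55978) lies on chr11:78536361-78541732 of GRCm38.p6, and the 200 bases before its start, from RefSeq, are printed because it is the gene with the largest change, and are set beside those of Tulp3, Kif3b and Kif3c further on.
Ift20, chr11:78536161-78536360, plus strand: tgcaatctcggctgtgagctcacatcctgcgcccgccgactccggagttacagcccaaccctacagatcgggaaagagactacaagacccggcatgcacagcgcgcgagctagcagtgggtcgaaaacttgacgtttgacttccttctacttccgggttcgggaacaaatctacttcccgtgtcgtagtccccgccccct

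Ift20 had 14.2, 16.1 and 15.6 CPM in the DSS cultures of mice 1716, 1717 and 1718, against 19.5, 23.3 and 23.5 CPM in their control cultures. Every DSS value lay below every control value. The means were 15.3 ± 0.974 CPM in DSS cultures and 22.1 ± 2.28 CPM in control cultures (SD, n = 3 each). The level in DSS was 0.694 of that in control, a log2 fold change of -0.53 (SE 0.0732, 95% interval -0.70 to -0.35), with an edgeR adjusted p of 0.00222. Ratios per mouse were -0.45, -0.54 and -0.59 on the log2 scale. The libraries held 249 to 425 counts of Ift20, all from 1 transcript, and its exons overlap no other annotated gene in GENCODE M21. Without the mouse as a block the adjusted p was 0.0162.

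The other 12 IFT-B genes missed the threshold. The 7 genes of the core of the complex (Ift22, Ift27, Ift46, Ift52, Ift74, Ift81 and Ift88) had a median log2 fold change of -0.09, and the 6 of the outer part (Ift20, Ift57, Ift80, Ift172, Traf3ip1 and Cluap1) one of -0.01, a grouping made after the values were seen. Ift80, an outer subunit whose human gene is mutated in skeletal ciliopathies, had 19.2, 19.6 and 20.7 CPM in DSS cultures, against 23.6, 22.1 and 23.7 CPM in control cultures, with no overlap. Its log2 fold change was -0.22, with an edgeR adjusted p of 0.0576. Ift22, a small GTPase-like subunit, had 9.24, 9.03 and 9.22 CPM in DSS cultures, against 10.6, 10.3 and 12.7 CPM in control cultures, again with no overlap (log2 fold change -0.29, edgeR adjusted p = 0.0827). Ift74, which with Ift81 forms the tubulin-binding module of the train, averaged 13.4 ± 1.35 CPM in DSS cultures and 15.3 ± 0.841 CPM in control cultures (SD, n = 3 each; log2 fold change -0.20, edgeR adjusted p = 0.124). Ift81 itself averaged 16.0 ± 0.655 CPM in DSS cultures and 16.5 ± 0.94 CPM in control cultures (SD, n = 3 each).

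Ift172 and Ift46 had the highest CPM of the IFT-B genes, a value that is not per length. Ift172, a large subunit at the edge of the train known from Chlamydomonas to be needed for turning round at the ciliary tip, had 50.2, 47.7 and 45.8 CPM in DSS cultures and 47.9, 48.1 and 49.9 CPM in control cultures. Its log2 fold change was -0.02 with a 95% interval of -0.17 to 0.12, and the groups overlapped. Ift46, a core subunit known from Chlamydomonas to carry outer dynein arms, had 32.6, 31.0 and 38.4 CPM in DSS cultures and 35.1, 36.2 and 36.9 CPM in control cultures (log2 fold change -0.09). Ift88, the subunit whose loss abolishes cilia and whose mouse mutant develops polycystic kidneys, had 8.90, 6.81 and 8.48 CPM in DSS cultures, against 8.51, 9.21 and 9.46 CPM in control cultures. Those groups overlapped, and the log2 fold change was -0.17 (95% interval -0.46 to 0.12, edgeR adjusted p = 0.364). Curated transcripts held 37.8% of the counts of Ift88 and alone gave -1.03 (edgeR adjusted p = 0.544), and leaving out a mouse gave -0.29 to -0.05.

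The remaining IFT-B genes had overlapping groups. Ift52, which ties parts of the core together, averaged 22.7 ± 1.82 CPM in DSS cultures and 21.4 ± 1.43 CPM in control cultures. Traf3ip1, also called IFT54, averaged 11.8 ± 1.0 CPM in DSS cultures and 11.0 ± 0.70 CPM in control cultures, and Cluap1, or IFT38, 10.6 ± 0.189 CPM in DSS cultures and 10.6 ± 1.03 CPM in control cultures. Ift57, partner of Ift20 in the outer part, averaged 7.99 ± 0.559 CPM in DSS cultures and 7.68 ± 0.885 CPM in control cultures. Ift27, a small GTPase that takes part in the export of the BBSome and its cargo, averaged 6.66 ± 0.696 CPM in DSS cultures and 6.68 ± 1.02 CPM in control cultures (SD, n = 3 each for all 5).

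In IFT-A, Wdr35 and Wdr19 came nearest to the threshold, in opposite directions. Wdr35, the outer subunit IFT121, had 17.7, 20.2 and 19.9 CPM in DSS cultures, against 27.8, 23.0 and 22.6 CPM in control cultures. Every DSS value lay below the control values, with a log2 fold change of -0.34 (95% interval -0.59 to -0.10) and an edgeR adjusted p of 0.0521. Leaving out mouse 1716 moved Wdr35 to -0.19 (edgeR adjusted p = 0.151), leaving out mouse 1717 to -0.42 (0.0458) and leaving out mouse 1718 to -0.43 (0.075), while curated transcripts alone gave -0.21 (0.352). Wdr19, the core subunit IFT144, had 28.5, 27.3 and 29.0 CPM in DSS cultures, against 25.2, 25.1 and 22.0 CPM in control cultures. There every DSS value lay above the control values (log2 fold change 0.23, edgeR adjusted p = 0.0657, or 0.14 and 0.404 without mouse 1718). The most counted Wdr19 transcript also took a larger share of that gene's counts in DSS cultures, 46.2 to 63.1%, than in control cultures, 38.0 to 44.4%. Such a share lay clear between the groups for 4 of 24 members with more than 1 counted transcript, or 16.7%, against 13.2% of 12521 tested genes.

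The other 4 IFT-A genes also missed the threshold. Ift43, a small outer subunit, had 9.53, 10.4 and 9.28 CPM in DSS cultures and 11.0, 10.7 and 10.7 CPM in control cultures. Its groups did not overlap, and its log2 fold change was -0.15 (edgeR adjusted p = 0.294). Ift140, a core subunit, had 29.3, 29.1 and 26.6 CPM in DSS cultures and 28.4, 27.5 and 28.4 CPM in control cultures, a log2 fold change of 0.01. Ttc21b, or IFT139, had 24.7, 27.8 and 31.5 CPM in DSS cultures and 24.4, 22.7 and 28.4 CPM in control cultures (log2 fold change 0.15, edgeR adjusted p = 0.191). Ift122, the third core subunit, averaged 25.5 ± 3.07 CPM in DSS cultures and 23.6 ± 1.43 CPM in control cultures (SD, n = 3 each; log2 fold change 0.11).

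The kinesin-2 genes split. The heterotrimeric motor that drives outward transport is built of Kif3a, Kif3b and the adaptor Kifap3. Kif3c, known mostly from neurons, can take the place of Kif3b beside Kif3a. Kif17 forms a homodimer with a role in some sensory cilia. Both motor subunits that passed the threshold, Kif3b and Kif3c, are alternative partners of Kif3a, and their fitted changes had opposite signs.

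Kif3b (NCBI gene 16569, chr2:153291395-153333390) had 48.0, 47.6 and 49.0 CPM in the DSS cultures of mice 1716, 1717 and 1718, against 58.9, 55.3 and 60.2 CPM in their control cultures. All 3 DSS values lay below the lowest control value. It fell by 0.27 on the log2 scale (SE 0.056, 95% interval -0.40 to -0.14), to 0.83 of the control level, with an edgeR adjusted p of 0.0123. Without the block the adjusted p was 0.0299, with DESeq2 0.0725, without mouse 1718 0.0863, and from curated transcripts alone 0.124.

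Kif3c (NCBI gene 16570, chr12:3365132-3406494) had 80.7, 80.9 and 64.2 CPM in DSS cultures, against 70.9, 64.4 and 54.0 CPM in control cultures. The groups overlapped, because mouse 1718 was the lowest of both, but each mouse was higher in DSS, by 0.19, 0.33 and 0.25 on the log2 scale. It rose 1.19-fold (log2 fold change 0.26, SE 0.0579, 95% interval 0.12 to 0.39, edgeR adjusted p = 0.0174). Without the block the edgeR adjusted p was 0.241, without mouse 1717 0.100, without mouse 1718 0.107, and with DESeq2 0.112. An antisense transcript, 1110002L01Rik, overlaps 2617 exonic bases of Kif3c, and whether the counting used strand is not stated. That transcript had 7.82, 10.5 and 9.39 CPM in DSS cultures and 6.28, 9.21 and 8.94 CPM in control cultures. Annotated genes also overlap exons of Inpp5e, Cluap1, Ift57, Ift88 and Kif17, and how reads were shared there is uncertain. The overlap is on the same strand for Kif17 and for 1 of the 3 genes over Cluap1, and on the opposite strand for the rest.

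The ratio of Kif3c to Kif3b in CPM, chosen after both values were seen and given as a description, was 1.68, 1.70 and 1.31 in DSS cultures, against 1.20, 1.16 and 0.897 in control cultures. It was higher in the DSS culture of each mouse, and the groups did not overlap. Kif3a itself had 34.3, 32.2 and 32.0 CPM in DSS cultures and 33.3, 32.8 and 36.7 CPM in control cultures, with a log2 fold change of -0.06 (95% interval -0.22 to 0.10). Kifap3 had 44.8, 43.1 and 37.8 CPM in DSS cultures and 43.8, 46.8 and 40.8 CPM in control cultures, a log2 fold change of -0.06 (95% interval -0.21 to 0.08). Neither shared subunit passed the threshold, and the groups of both overlapped. Kif17 averaged 0.891 ± 0.228 CPM in DSS cultures and 0.954 ± 0.147 CPM in control cultures (SD, n = 3 each). Kif17 had 12 to 20 counts per library and a 95% interval of -0.73 to 0.52 on the log2 scale, so where in that range its change lay is not known.

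**Figure D3:**
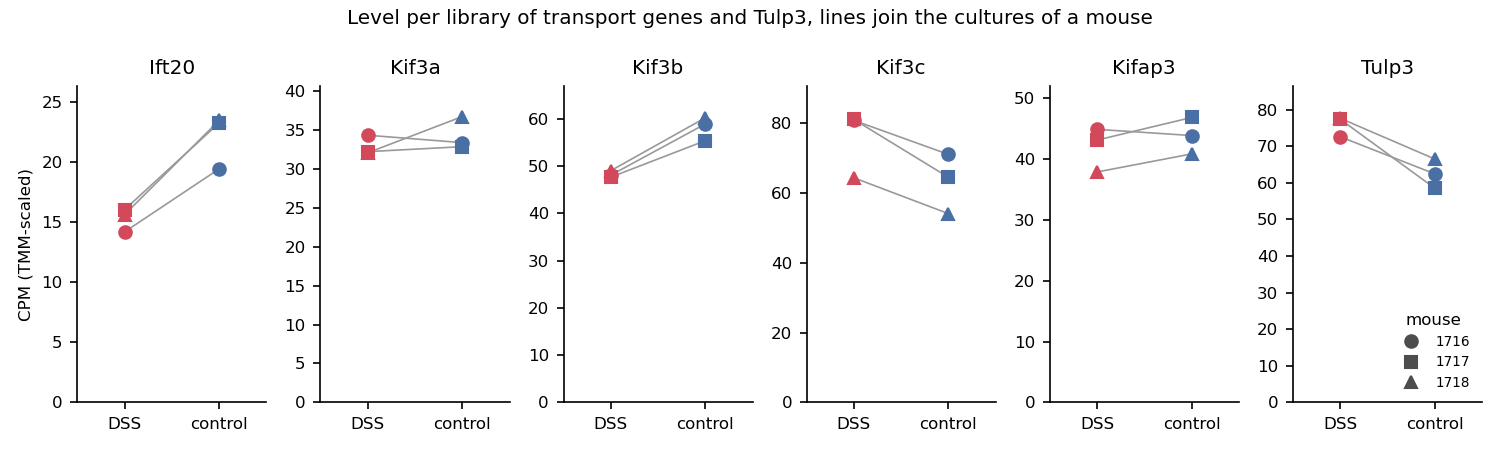
CPM in each library for Ift20, the kinesin-2 genes Kif3a, Kif3b, Kif3c and Kifap3, and Tulp3 (vertical axis from 0, DSS left of control), with a line joining the cultures of each mouse. Ift20 and Kif3b lie lower and Tulp3 higher in DSS without overlap, while the lines of Kif3c run in parallel over an overlapping range.

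For the return motor, both dynein-2 subunits measured missed the threshold. Dync2h1, the heavy chain that does the pulling, had 53.9, 47.5 and 47.6 CPM in DSS cultures and 47.9, 44.2 and 43.7 CPM in control cultures, higher in the DSS culture of each mouse (log2 fold change 0.13, 95% interval 0.00 to 0.26, edgeR adjusted p = 0.132). Transcripts with curated accessions held 15.7% of its counts, so the value rests mostly on predicted transcript models. Dync2li1, the light intermediate chain, had 7.13, 6.98 and 8.48 CPM in DSS cultures and 7.25, 7.51 and 7.62 CPM in control cultures, a log2 fold change of 0.01.

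Among the membrane cargo genes Tulp3 rose. Tulp3 is the adaptor that binds IFT-A and phosphoinositides and brings receptors such as Gpr161 into the cilium. The gene (NCBI gene 22158) lies on chr6:128321140-128355873. It had 72.6, 77.4 and 77.6 CPM in the DSS cultures of mice 1716, 1717 and 1718, against 62.4, 58.5 and 66.5 CPM in their control cultures. The lowest DSS value exceeded the highest control value. The means were 75.9 ± 2.84 CPM in DSS cultures and 62.5 ± 3.99 CPM in control cultures (SD, n = 3 each), a 1.21-fold rise (log2 fold change 0.28, SE 0.0624, 95% interval 0.13 to 0.43, edgeR adjusted p = 0.0159). Without the block the edgeR adjusted p was 0.0416, but it was 0.0775 with DESeq2, 0.0931 and 0.0675 without mouse 1717 or mouse 1718, and 0.0761 from curated transcripts alone.

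The other cargo genes had fitted values below 0 and overlapping groups. Inpp5e, the phosphatase that keeps phosphatidylinositol 4,5-bisphosphate out of the ciliary membrane, had 22.6, 21.3 and 25.0 CPM in DSS cultures and 24.7, 22.2 and 24.0 CPM in control cultures (log2 fold change -0.04). Arl13b, a GTPase of the ciliary membrane that activates Arl3, averaged 18.5 ± 1.85 CPM in DSS cultures and 21 ± 0.843 CPM in control cultures (SD, n = 3 each; log2 fold change -0.18, edgeR adjusted p = 0.144). Arl3, which releases lipid-modified proteins from their carriers inside the cilium, averaged 7.17 ± 0.561 CPM in DSS cultures and 8.20 ± 0.535 CPM in control cultures (SD, n = 3 each; log2 fold change -0.19, edgeR adjusted p = 0.29).

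Levels of different genes can be set side by side only per length of transcript. Lengths from GENCODE M21 covered at least 50% of the counts for 23 of the 30 genes, and CPM per kilobase is given for those. In DSS cultures Tulp3 was highest at 22.5 ± 0.84 CPM per kilobase and Ift20 next at 13.4 ± 0.85, while in control cultures Ift20 was at 19.4 ± 1.99 and Tulp3 at 18.5 ± 1.18 (SD, n = 3 each). The control values of these genes lay within their spread of each other, and the DSS values did not. Ift43 and Kif3a followed at 12.4 ± 0.74 and 12.4 ± 0.48 CPM per kilobase in DSS cultures, against 13.8 ± 0.22 and 13.0 ± 0.79 in control cultures, and these neighbours lay within their spread of each other. The other kinesin-2 genes but Kif17 lay a little lower. Kifap3, Kif3b and Kif3c had 10.6 ± 0.92, 8.56 ± 0.12 and 11.1 ± 1.41 CPM per kilobase in DSS cultures. In control cultures the values of Kifap3, Kif3b and Kif3c were 11.0 ± 0.75, 10.3 ± 0.44 and 9.29 ± 1.26 CPM per kilobase. Kif17 was lowest of the 23, at 0.289 CPM per kilobase in DSS cultures and 0.309 in control cultures.

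**Figure D4:**
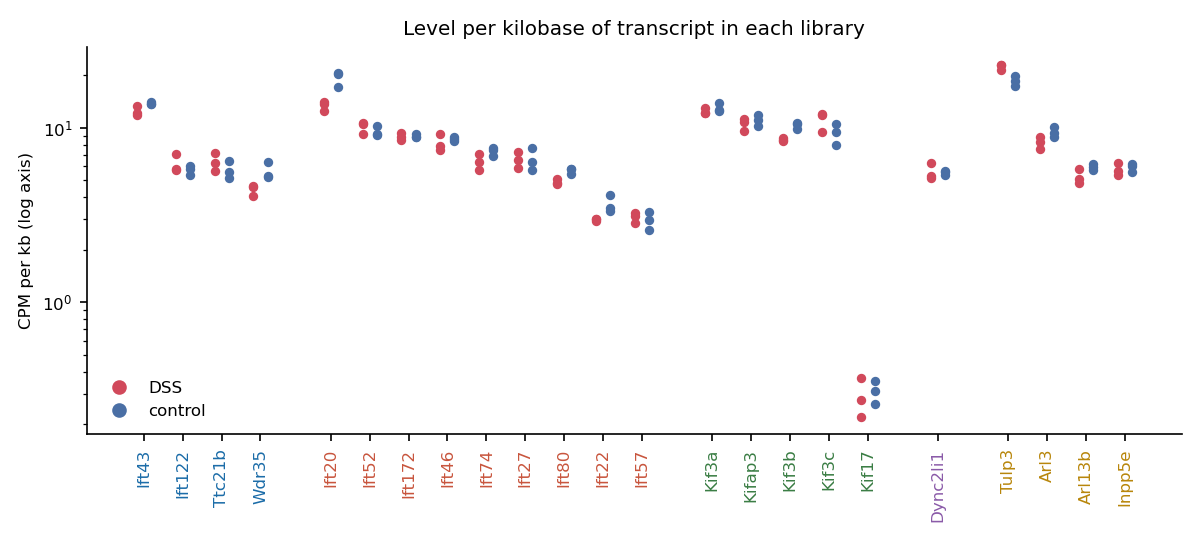
CPM per kilobase of transcript (log axis) in each library for the 23 genes with a length, DSS left of control within each gene. Levels run from 0.289 (Kif17) to 22.5 (Tulp3) in DSS and from 0.309 (Kif17) to 19.4 (Ift20) in control.

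Ciliary genes are known targets of RFX transcription factors, which bind the X-box, so the promoters of the 30 genes were searched for its letters. A window of 250 bases before to 50 after a start was at hand for 26 of them (GRCm38.p6), with the start taken from RefSeq's promoter annotation. That start can lie well inside the gene. The window of Kifap3 is chr1:163779333-163779632, while the gene begins at 163762138, and that of Ift74 is chr4:94614241-94614540, while the gene begins at 94603266. The windows of Ift46, Cluap1, Kif3a and Dync2h1 also lie inside their genes. Bases outside the windows were not searched. The letters GTTGCC, on either strand, stood in the window of 12 of the 26 genes, or 46.2%, against 14.1% of 27025 genes with a window. By complex they stood in 2 of 5 IFT-A genes, 5 of 11 IFT-B genes, 3 of 5 kinesin-2 genes, Dync2h1 and 1 of 4 membrane cargo genes. Of the 4 genes that passed the threshold, Kif3c alone had them. In 3 genes a copy of these letters faced its reverse complement GGCAAC across 0 to 3 bases, with at most 1 mismatch in each, against 4.79% of all genes with a window and 11.5% of the 26. Those stretches, on the plus strand of GRCm38.p6, are shown because they are the ones that meet this rule, with capitals for the letters that match.
Kif17, chr4:138262178-138262190: GTTGCCcaGCAAC
Ift22, chr5:136908087-136908100: GTTtCCtgGGCtAC
Ift22, chr5:136908117-136908130: GTcGCCgtGGaAAC
Ift57, chr16:49699234-49699246: GTTGCCtGGtAAC

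None of Kif17, Ift22 and Ift57 passed the threshold. The 200 bases before the start of the other 3 genes that did are given next, from RefSeq on GRCm38.p6 and 5′ to 3′ on the strand of the gene, counted from the start RefSeq's promoter table uses, so that for Tulp3 and Kif3b the last 22 and 21 bases lie inside the gene, with the letters GTTGCC in capitals where they occur, to be set beside the stretch of Ift20 above.
Tulp3, chr6:128355852-128356051, minus strand: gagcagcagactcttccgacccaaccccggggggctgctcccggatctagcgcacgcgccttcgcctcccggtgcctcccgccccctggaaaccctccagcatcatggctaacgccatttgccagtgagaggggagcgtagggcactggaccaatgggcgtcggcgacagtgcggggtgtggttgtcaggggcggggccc
Kif3b, chr2:153291216-153291415, plus strand: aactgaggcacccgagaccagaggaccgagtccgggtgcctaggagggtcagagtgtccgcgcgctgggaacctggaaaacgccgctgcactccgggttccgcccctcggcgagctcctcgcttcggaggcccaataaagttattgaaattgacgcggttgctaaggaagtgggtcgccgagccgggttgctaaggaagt
Kif3c, chr12:3364932-3365131, plus strand: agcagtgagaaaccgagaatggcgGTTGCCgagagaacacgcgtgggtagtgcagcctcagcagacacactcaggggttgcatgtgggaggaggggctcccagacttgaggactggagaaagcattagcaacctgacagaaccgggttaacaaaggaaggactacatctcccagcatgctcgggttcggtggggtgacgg
A match describes the letters and is no measured binding site, and a window without one says only that these letters are not in it.

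The wider pathway was read from lists of 53 further genes, of which 44 were tested. In these lists 16 genes passed the threshold, 6 higher and 10 lower, or 36.4% against 25.0% of all tested genes, with a median log2 fold change of -0.05 against 0.01. Without the mouse as a block 2 rose and 3 fell, or 11.4% against 13.3% of all tested genes, so the lists lay above the background with the block and below it without. The 5 tested of 6 other IFT-B subunits all had fitted values below 0 (median -0.31), but none passed the threshold. The nearest was Rabl2, a GTPase that starts train entry, at -0.38 (edgeR adjusted p = 0.0639). Next came the subunit Ttc26 at -0.31 (edgeR adjusted p = 0.0731).

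Of the other dynein-2 chains, 11 were tested, and 3 rose while 2 fell, where 12.3% and 12.7% of all tested genes rose and fell. Those that passed the threshold are light chains that also serve cytoplasmic dynein-1. Dync2i2, Dync2i1 and Dynlt2b, which belong to dynein-2 itself, had log2 fold changes of -0.02, -0.0002 and -0.02 (edgeR adjusted p of 0.902, 0.999 and 0.948). Dynll1 averaged 58.6 ± 4.98 CPM in DSS cultures and 86.9 ± 6.43 CPM in control cultures (SD, n = 3 each), a log2 fold change of -0.57 (SE 0.05, edgeR adjusted p = 0.000453, and 0.007 without the block). Dynlrb1 fell by 0.35 on the log2 scale (edgeR adjusted p = 0.0105). Dynlt1b, Dynlt1c and Dynlt1f had log2 fold changes of 0.88, 0.80 and 0.33 and passed the threshold, but the Dynlt1 copies are nearly identical, so how reads were shared among them is uncertain. Without the block Dynlt1f missed it (edgeR adjusted p = 0.249). Summed over the 4 copies, they held 121, 154 and 137 CPM in DSS cultures, against 87.8, 85.5 and 84.3 CPM in control cultures, with no overlap between the groups.

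The list of carriers of lipid-modified cargo had 10 tested genes, with 3 lower and 0 higher in DSS, where 12.7% and 12.3% of all tested genes fell and rose. The list as a whole did not lean to one side. Its median log2 fold change was 0.01, with 5 fitted values above 0 and 5 below. The value farthest from 0 was a rise, 0.47 for Cys1, which missed the threshold (edgeR adjusted p = 0.0904). Rab28 fell by 0.30, Pde6d by 0.26 and Unc119b by 0.23 on the log2 scale (edgeR adjusted p of 0.0207, 0.0328 and 0.026). Pde6d and Unc119b are the carriers from which Arl3 releases prenylated and myristoylated proteins. Without the block none of the 3 passed, at an edgeR adjusted p of 0.0859 for Rab28, 0.145 for Pde6d and 0.0701 for Unc119b.

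Among 13 tested genes for ciliary membrane proteins and phosphoinositide enzymes, 2 rose and 5 fell, with a median log2 fold change of -0.19, where 12.3% and 12.7% of all tested genes rose and fell. Without the block 0 of these 13 rose and 1 fell. The polycystins, membrane proteins that form a channel complex in the primary cilium, both fell. Pkd2 averaged 233 ± 33.7 CPM in DSS cultures and 289 ± 25.6 CPM in control cultures (SD, n = 3 each; log2 fold change -0.32, edgeR adjusted p = 0.00789). Pkd1 averaged 465 ± 55.1 CPM in DSS cultures and 541 ± 25.6 CPM in control cultures (SD, n = 3 each; edgeR adjusted p = 0.0414). Without the block neither passed, at adjusted p of 0.132 for Pkd2 and 0.2 for Pkd1.

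The phosphoinositide and cyclic AMP enzymes of that list moved in different directions. Inpp5b, a phosphatase related to Ocrl, averaged 31.5 ± 3.03 CPM in DSS cultures and 42.0 ± 4.13 CPM in control cultures (SD, n = 3 each), and its log2 fold change of -0.41 passed with the block (edgeR adjusted p = 0.015) and without it (0.0367). Ocrl fell by 0.19 (edgeR adjusted p = 0.0464), and the kinase Pip5k1c, which makes phosphatidylinositol 4,5-bisphosphate, rose by 0.25 (edgeR adjusted p = 0.0157). Of the adenylyl cyclases, Adcy5 fell by 0.34 and Adcy6 rose by 0.18 (edgeR adjusted p of 0.00853 and 0.0475). Ocrl, Pip5k1c, Adcy5 and Adcy6 missed the threshold without the block.

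Of the RFX factors, Rfx7 averaged 70.3 ± 0.212 CPM in DSS cultures and 61.7 ± 1.78 CPM in control cultures (SD, n = 3 each; log2 fold change 0.19, edgeR adjusted p = 0.0444, or 0.0768 without the block). Rfx5, better known as a regulator of MHC class II genes, had a log2 fold change of 0.19 (edgeR adjusted p = 0.0721). Rfx3 and Rfx1, which are known to act on ciliary genes, had log2 fold changes of -0.11 and -0.05 (edgeR adjusted p of 0.352 and 0.597). Rfx2 had the largest fitted change of the tested genes of this list, -0.44, but missed the threshold (edgeR adjusted p = 0.142). It averaged 1.78 CPM in DSS cultures and 2.42 CPM in control cultures, and every DSS value lay below every control value. Foxj1, the master factor of motile cilia, was too low to be tested.

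**Figure D5:**
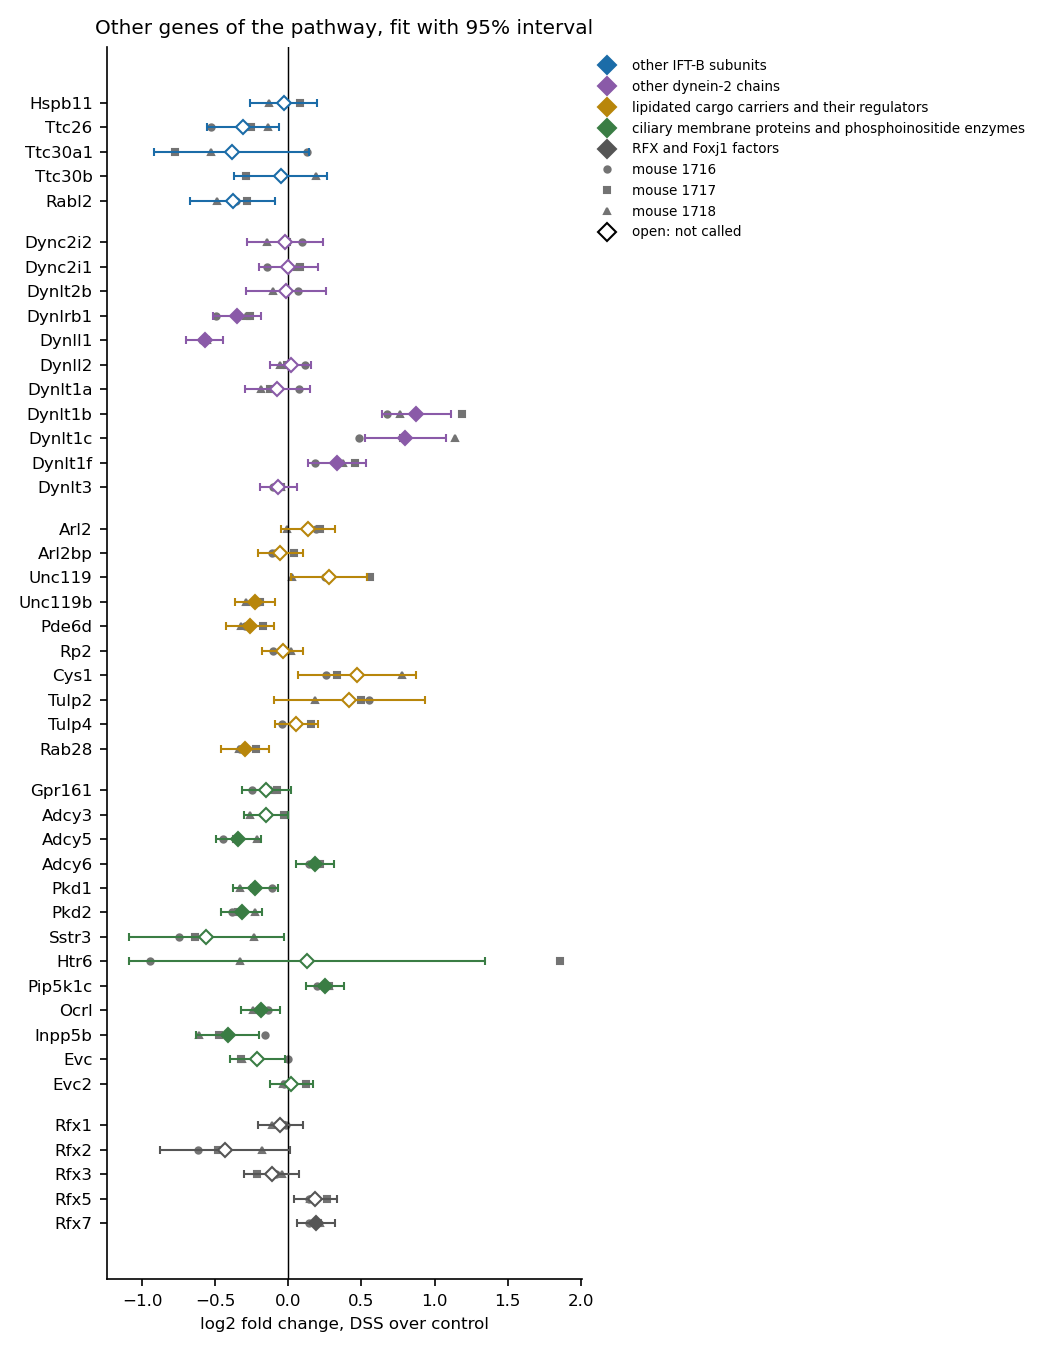
Fitted log2 fold change of DSS over control with its 95% interval for the 44 tested genes of the wider pathway lists, grouped by list; filled diamonds passed the threshold and grey symbols give each mouse's ratio. The values run from -0.57 for Dynll1 to 0.88 for Dynlt1b.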

How the data were processed

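Directional libraries of rRNA-depleted total RNA from 6 cultures were sequenced on a NextSeq 500, according to the labels and the design text. The authors deposited estimated counts per RefSeq transcript (120299 transcripts of 38896 genes), made with kallisto on build GRCm38 (mm10), per the submitters' processing notes. Neither its version nor its strand option is given in the sources used here. Kallisto divides reads among similar transcripts, so near-identical genes and shares of transcripts are uncertain.

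The estimated counts were summed per symbol, rounded, filtered by filterByExpr (at least 10 counts, total of 15), and tested after TMM scaling with edgeR 4.0.16 (quasi-likelihood, terms group and mouse, Benjamini-Hochberg over 19869 genes, threshold 0.05) in R 4.3.3. The block leaves 2 residual degrees of freedom. In a simulated draw the fit with the block made more false calls than the threshold states, so each member, wider-list gene or marker of fibroblasts or leukocytes whose call the fit without it loses is named. Alternatives used DESeq2 1.42.0 and limma 3.58.1. Tables were made with pandas 2.3.3 under Python 3.11.15, and figures with matplotlib 3.10.9. The cultures pair by animal. Deviations from the group means, on log2(CPM + 1), correlated across genes with r = 0.436, 0.272 and 0.554 between the cultures of mice 1716, 1717 and 1718, against -0.441 to 0.0129 between different mice. No libraries of a group agreed within counting noise (chi-square per degree of freedom 9.533 to 21.78). P-values of the fit with the block measure how the difference between DSS and control cultures varied among 3 mice, with spread estimates that draw on all genes. Those of the fit without the block measure the spread among cultures of a group.

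The members and lists were chosen with earlier results of these data known. Every member is named. Of each wider list, the 2 genes with the smallest p and any other called gene are named, and 1 gene of these lists is not reported here and was left out of their counts. Wdr34, Wdr60 and Tctex1d2 were matched by NCBI gene to Dync2i2, Dync2i1 and Dynlt2b.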

Additional observations from a re-analysis of the deposited data

How the results depend on the processing

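The fall of Ift20 passed the threshold under every alternative run, with a log2 fold change of -0.56 to -0.50 and an adjusted p of 0.00173 to 0.0266. Without the mouse as a block the number of called genes was 2639 (1465 higher, 1174 lower), with DESeq2 3039 (1470 higher, 1569 lower), from curated transcripts alone 1998 (1015 higher, 983 lower), and leaving out a mouse 2779 to 4679 (1357 to 2304 higher, 1422 to 2375 lower). Of the 30 genes, the number higher was 1 without the block, 0 with DESeq2, 1 from curated transcripts and 0 to 2 leaving out a mouse, and the number lower was 1 with DESeq2, 1 from curated transcripts and 1 to 3 leaving out a mouse. In the wider lists 2 were higher without the block, with DESeq2 and from curated transcripts, and 2 to 6 leaving out a mouse, while 3, 5 and 2 were lower under the same alternatives, and 4 to 9 leaving out a mouse. Under the block, leaving out a library is leaving out its mouse. Signs turned only among uncalled genes. Cluap1 turned to -0.0011 without the block, -0.00043 without ribosomal RNA entries, -0.0057 with DESeq2, -0.0015 with limma-voom and -0.17 from curated transcripts. Ift27 turned to 0.0138 with library size alone and 0.0258 from curated transcripts, which also gave -0.038 for Ift140, 0.073 for Ift46, 0.0049 for Kifap3 and -1.44 for Dync2h1 (adjusted p = 0.498). Leaving out a mouse gave -0.024 to 0.053 for Ift140, -0.174 to 0.111 for Ift27, -0.109 to 0.018 for Ift81, -0.204 to 0.067 for Kif17, -0.104 to 0.00296 for Inpp5e, -0.067 to 0.018 for Ift172, -0.101 to 0.0705 for Cluap1 and -0.074 to 0.065 for Dync2li1. The causes of these changes were not tested. Another scaling moved the median of all genes by at most 0.02. Depth limited Kif17 most, at 12 to 20 counts per library.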

Other observations

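The share of the most counted transcript lay clear between the groups for 3 uncalled genes besides Wdr19, 4 of 24 (16.7%) against 13.2% of all tested genes with more than 1 counted transcript. For Ift46 it was 65.1 to 66.6% in DSS cultures, against 57.9 to 62.1% in control cultures. For Ift81 it was 26.9 to 52.9% in DSS cultures, against 54.1 to 65.6% in control cultures. For Ift172, the largest IFT-B subunit, it was 85.9 to 90.2% in DSS cultures, against 91.2 to 93.4% in control cultures. These shares come from kallisto's division of reads, were chosen after they were seen and were not tested.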
